A study of Mus musculus with 6 samples.

Results

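The genes described here encode the potassium channel subunits of the mouse retina, together with the related HCN cation channels. They were chosen by symbol alone: every probe set whose single gene symbol in the platform annotation begins with Kcn, apart from Kcnj10, or names an HCN channel. This gave 168 of 45037 probe sets and 85 of 18193 genes, and each gene is given by its brightest probe set, judged on the average of all 6 arrays. Of the 85 genes, 82 encode channel subunits, and the other 3 (Kcnq1ot1, Kcnmb4os1 and Kcnmb4os2) are noncoding transcripts that share the name of a channel and were put in no class.

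Retinal RNA was measured on 3 Affymetrix arrays of wild type 129 mice and 3 arrays of prCAD -/- mice, all about 4 weeks old. The mutants are knockouts of photoreceptor cadherin (gene Cdhr1), and no label names their strain. Retinas of 3 mice were pooled for every array, which makes the pool the unit of replication. The submitters present the mouse as a model of retinal degeneration and ask how retinal transcript levels change in it.

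Potassium channels let potassium ions leave the cell, which holds the membrane potential negative and ends electrical signals. In the dark a photoreceptor takes up cations through the cyclic nucleotide-gated channels of its outer segment, and potassium leaves through voltage-gated channels of its inner segment. Light closes the outer segment channels and the cell hyperpolarizes. HCN channels open on hyperpolarization and counteract it, while channels of the inner retina shape the firing of bipolar, amacrine and ganglion cells. In the retinal pigment epithelium, an inward rectifier of the apical membrane returns potassium to the space around the outer segments.

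The Cdhr1 probe set read 11.32, 11.36 and 10.98 on the wild type arrays and 3.94, 4.20 and 4.34 on the mutant arrays, on the log2 scale used for every level and difference below. Arrays carry replicate numbers 1 to 3 in both groups, and same-numbered arrays deviated together. Over the 82 channel genes the deviations from the group means correlated at 0.54, 0.49 and 0.55 within the 3 pairs. Manufacturer control probe sets showed the same grouping: those for 18S ribosomal RNA averaged 9.47 and 9.62 on the replicate 2 arrays and 5.43 to 5.91 on the other 4. Wild type replicate 3 stood apart most, being farthest from its group mean in 43 of the 82 channel genes. Each difference is therefore given within the pairs as well where it matters. In whole retina, fewer cells of a type and less RNA per cell cannot be told apart.

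Marker lists showed which cell types gave a clear signal. All 8 measured rod markers and all 7 measured cone markers lay above the 75th percentile of all probe sets on every wild type array, as did 7 of 8 Müller glia markers, 5 of 7 ganglion cell markers, 6 of 8 amacrine and 4 of 6 bipolar cell markers. Of 9 lens markers 7 did so too. Their mean level was 9.12 on wild type replicate 3 and 9.81 to 10.65 on the other arrays. In the mutant 8 of them lay higher and 1 lower, with a median difference of 0.63 and pair medians of 0.08, 0.13 and 1.51. In wild type retina 23 of the 82 channel genes passed this limit of the 75th percentile and are called well expressed here. That is a share of 28% beside 35.3% of all 18193 genes. A further 29 lay below the median of their array on all 6 arrays. Probe sets differ in how strongly they bind their target, so these levels show which channels gave a clear signal and do not rank them.

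The well expressed channels came from every class. Among voltage-gated alpha subunits they were 10 of 31, namely Kcna1, Kcna5, Kcna6, Kcnc1, Kcnc2, Kcnc4, Kcnd3, Kcnh2, Kcnh3 and Kcnv2. The auxiliary subunits of voltage-gated channels contributed 7 of 12 (Kcnab1, Kcnab2, Kcnab3, Kcne2, Kcnip1, Kcnip2 and Kcnip3). Of the 11 genes of calcium- or sodium-activated channels, Kcnma1 and Kcnmb4 passed, which encode the pore and a beta subunit of the large-conductance (BK) channel. Of 14 inward rectifiers, Kcnj11 and Kcnj14 passed, of 12 leak channels of the K2P family Kcnk1, and of the HCN genes Hcn3. At the stricter limit of the 90th percentile 6 remained: Kcna5, Kcnh2, Kcnv2, Kcnab2, Kcne2 and Kcnj14. Nearest to the limit on the inside was Kcnip2, whose lowest wild type array exceeded its 75th percentile by 0.05, and on the outside Kcnk3, whose lowest array fell short of it by 0.10 (-0.10). When the probe sets of a gene were averaged instead, 11 genes passed.

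**Figure D1:**
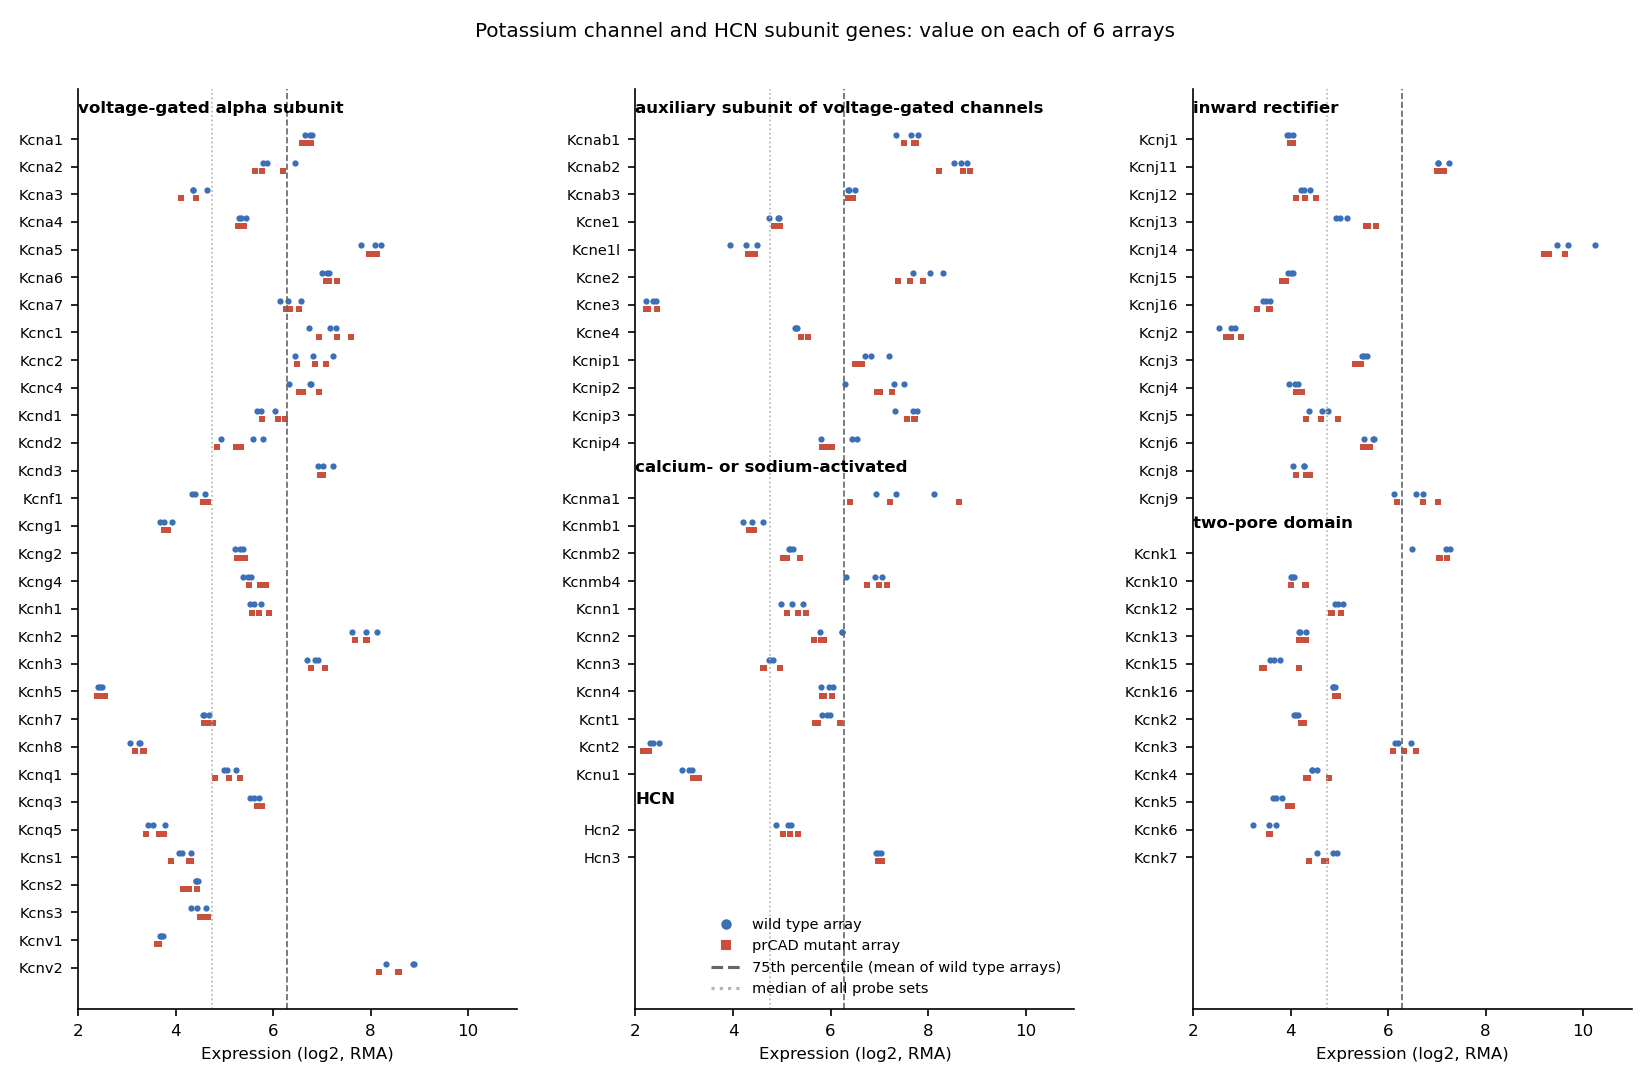
Log2 expression of the 82 channel subunit genes by class on each array, with wild type arrays as blue circles and prCAD mutant arrays as red squares. The dashed line is the 75th percentile of all probe sets and the dotted line their median of 4.76; Kcnj13 is among the genes in which the groups do not overlap.

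No channel gene changed between prCAD mutant and wild type retina by the test over all probe sets. With limma and Benjamini-Hochberg adjustment 0 of the 82 subunit genes passed, and 0 of the 168 probe sets of all 85 members, where 0.0165% of all genes and 0.0111% of all probe sets did (limma). The smallest adjusted p of any channel probe set was 0.562, that of Kcnj13. With the replicate number as a block, again 0 genes passed, beside 0.044% of all genes, and 0 probe sets, beside 0.0333% of all probe sets (limma, smallest adjusted p = 0.321).

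At an unadjusted p under 0.05 (limma), 2 channel genes were higher, Kcnj13 and Kcnk5, and 1 was lower, Kcnip1. Among the 168 probe sets 4 were higher and 3 lower, beside 1.68% and 1.34% of all probe sets; these add dimmer probe sets of Kcnma1 (0.48), Kcnn4 (0.23), Kcnd2 (-0.57) and Kcnd3 (-0.36). The rule took 2.33% of all genes on the higher and 1.09% on the lower side, so the channel counts lie near the background. With the block there were 4 higher (Kcnj13, Kcnk5, Kcnc1 and Kcnd1) and 5 lower (Kcne2, Kcnip1, Kcnn2, Kcnd2 and Kcnv2), beside 4.88% and 2.57%. Groups did not overlap in 5 genes on the higher and 5 on the lower side, where 5.89% and 2.88% of all genes did the same. The higher ones were Kcnj13, Kcnk5, Kcnk2, Kcne4 and Kcnu1, and the lower ones Kcnip1, Kcnt2, Kcnj15, Kcnj3 and Kcnv1. The median difference of the 82 genes was 0.02, as was that of all genes, and the quartiles were -0.06 and 0.09 for the channels and -0.05 and 0.10 for all genes. Within the pairs the channel median was -0.03, 0.02 and 0.05.

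The precision of the fit on group alone shows what size of change that fit could have missed. The unadjusted 95% interval of the difference, from the limma fit, lay within 0.5 of 0 in 62 of the 82 channel genes, and in 13938 of all 18193 genes. It lay within 1 of 0, a change of less than 2-fold, in 81 of the 82. The exception was Kcnma1, with an SE of 0.56 in this fit and 0.19 with the replicate block. The fit does not use the pairs, so deviations shared by same-numbered arrays enter its intervals. These intervals cover single genes and are not adjusted for their number.

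**Figure D2:**
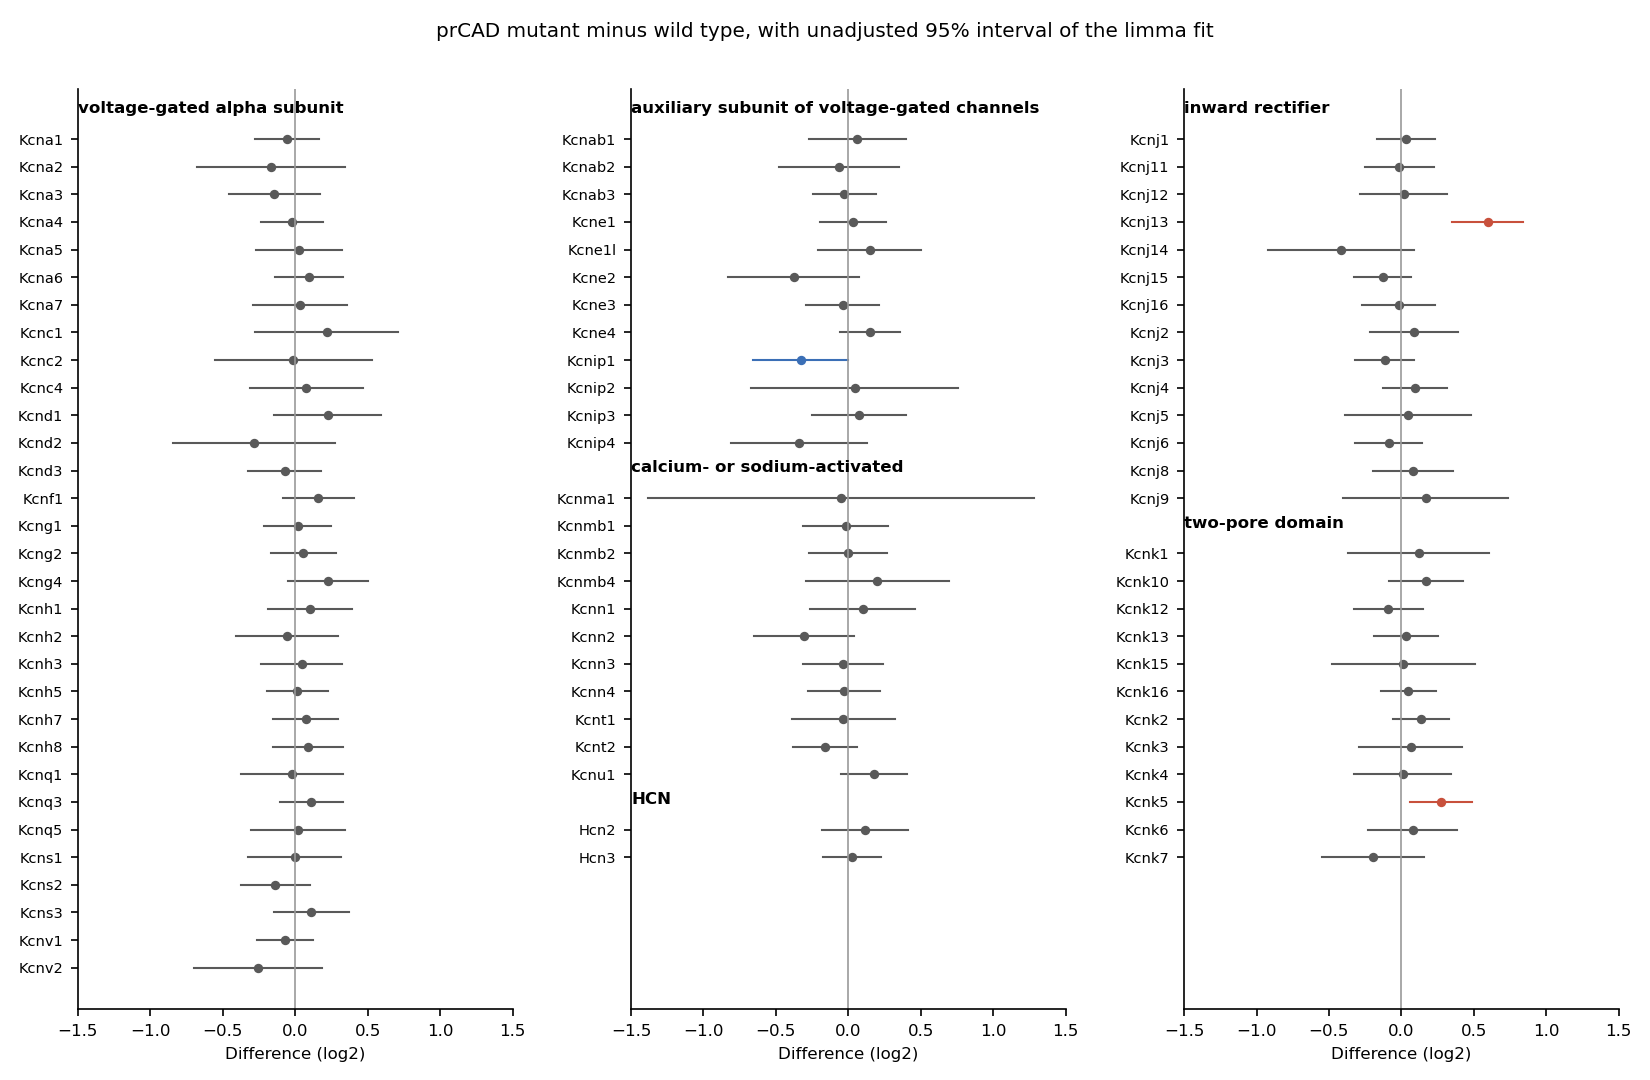
Difference between prCAD mutant and wild type retina (log2) for the 82 channel subunit genes by class, with the unadjusted 95% interval of the limma fit. Red marks the 2 genes whose interval lies above 0 (Kcnj13, Kcnk5), blue the 1 gene whose interval lies below it (Kcnip1), and none of them passed the adjusted threshold.

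Of all channel genes, Kcnj13 differed most. It encodes an inward rectifier of the apical membrane of the retinal pigment epithelium, and mutations in the human gene cause inherited retinal disease. Kcnj13 read 4.93, 5.15 and 5.01 in wild type and 5.75, 5.54 and 5.59 in mutant arrays, so every mutant array lay above every wild type array. The means were 5.03 ± 0.11 and 5.63 ± 0.11 (SD, n = 3 each). Kcnj13 was 0.60 higher (SE 0.10, 95% interval 0.35 to 0.84), which is 1.51-fold (limma, adjusted p = 0.562). The pair differences were 0.81, 0.39 and 0.58. It was the only channel gene whose groups did not overlap at a difference of 0.5 or more, a rule that took 0.764% of all genes. Over the alternative settings and with each array left out the difference ran from 0.53 to 0.66.

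Markers of the pigment epithelium were also higher. All 12 lay higher in mutant arrays, 9 of them at an unadjusted p under 0.05 and 0 after adjustment (limma), with a median difference of 0.90. Of all genes 58.4% lay higher and 2.33% did so at an unadjusted p under 0.05. Without wild type replicate 3 all 12 again lay higher, 8 at an unadjusted p under 0.05, with a median of 0.71. All 12 also lay higher without both replicate 3 arrays, with a median of 0.79. Their mean level was 5.88, 5.89 and 5.17 on the wild type and 6.53, 6.68 and 6.36 on the mutant arrays. Rpe65, the isomerase of the visual cycle, differed by 1.07 (SE 0.39), with 0.22, 1.48 and 1.52 in the pairs and 0.69 without wild type replicate 3. Ttr, which encodes transthyretin, differed by 2.27 (SE 0.78), with 0.88, 1.84 and 4.08 in the pairs and 1.27 without that array, while Best1, a chloride channel of the same epithelium, differed by 0.01 (SE 0.10). The markers did not share 1 pattern over the pairs. Dct, Mlana, Pmel and Tyrp1 differed most in the first pair and least in the second, as Kcnj13 did. Rdh5, Rgr, Slc6a20a and Stra6 differed least in the first pair and most in the third, as Rpe65 and Ttr did. Best1 and Lrat were lowest in the third pair. Of the 12, Lrat and Slc6a20a lay below the array median on all arrays. Wild type replicate 3 had the lowest mean marker level. Without it Kcnj13 differed by 0.58. The part of pigment epithelium RNA in the Kcnj13 difference was not tested.

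**Figure D3:**
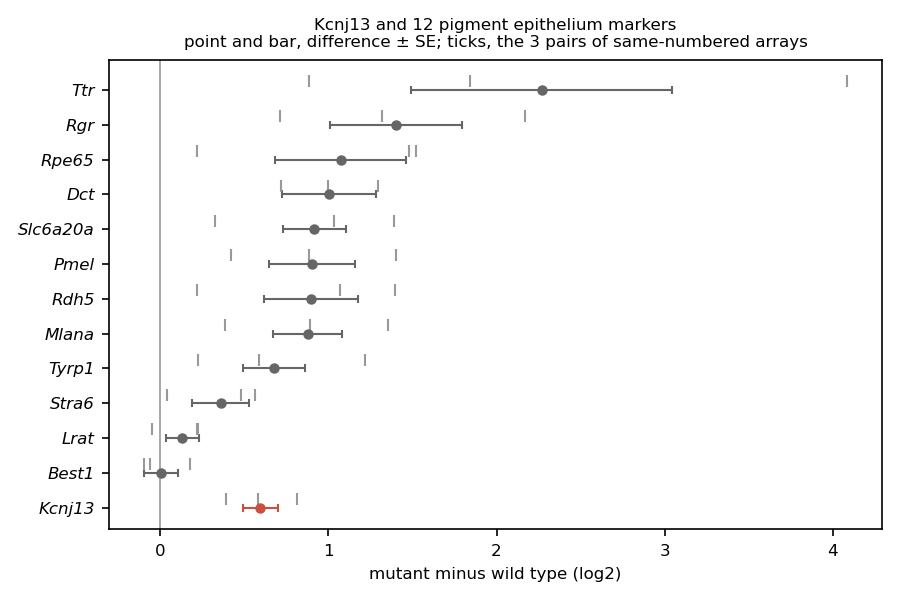
Difference between prCAD mutant and wild type arrays (log2, horizontal axis) for Kcnj13 in red and 12 pigment epithelium markers in grey, as the mean with its SE and, as ticks, the 3 pairs of same-numbered arrays. All 13 genes lie above 0 on average, Kcnj13 at 0.60 and the markers between 0.01 and 2.27.

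Because Kcnj13 was the channel with the largest difference, the sequence before its start is shown. The 250 bases upstream of the RefSeq start lie at chr1:87394730-87394979 of GRCm38.p6 on the minus strand, and are written 5′ to 3′ on that strand.
Kcnj13: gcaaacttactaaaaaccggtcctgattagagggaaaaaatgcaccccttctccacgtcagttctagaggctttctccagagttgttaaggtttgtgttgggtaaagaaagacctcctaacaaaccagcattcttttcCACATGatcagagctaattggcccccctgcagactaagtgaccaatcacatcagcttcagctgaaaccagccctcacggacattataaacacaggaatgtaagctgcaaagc
Capitals mark its 1 match to CATGTG, read here from the opposite strand. CATGTG is an E-box form that MITF, the transcription factor of pigment cells, can bind, and 12.3% of all 32851 promoter windows of this length hold it on either strand. The palindromic E-box CACGTG and TAATCC, the core recognized by the photoreceptor factors CRX and OTX2, had 0 matches in the Kcnj13 window. Of all 87 windows of channel genes 2 held CATGTG (2.3%), 1 held TAATCC (1.15%) and 5 held CACGTG (5.75%). Among the 28 windows of well expressed channel genes 0 held TAATCC, where 6.25% of all windows did. CATGTG was in 0 of these 28, beside 12.3%, and CACGTG in 2, beside 6.02%. These 28 windows belong to only 16 genes, some with several starts, which is too few to read a lack of a motif from. Windows were found for 62 of the 82 channel genes, Kcnv2 and Kcnj14 not among them, and the motifs were picked after the expression values were known.

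Kcnj14, an inward rectifier of neurons, gave a strong signal in every array. It read 9.68, 9.46 and 10.23 in wild type and 9.62, 9.29 and 9.20 in mutant retina, and the groups overlapped. It differed by -0.42 (SE 0.21, interval -0.92 to 0.09), with pair differences of -0.06, -0.17 and -1.03. In the third pair the highest wild type array met the lowest mutant array. The Kcnj14 difference was -0.20 without wild type replicate 3 and -0.11 without both replicate 3 arrays. Kcnj11, the pore of the ATP-sensitive channel, differed by -0.01 (SE 0.10). Kcnj8, a pore of the ATP-sensitive channel in vessels, lay below the median at 4.20 ± 0.12 and 4.28 ± 0.15 (SD, n = 3 each) and differed by 0.08 (SE 0.12).

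At their brightest probe sets the remaining inward rectifiers differed little. Kcnj12 differed by 0.02 (SE 0.13) and Kcnj4 by 0.09 (SE 0.09), both of them members of the strongly rectifying subfamily. Kcnj15 differed by -0.13 (SE 0.08) without overlap, but near background at 4.00 and 3.87. Kcnj3, Kcnj6 and Kcnj9, whose products form channels opened by G proteins, differed by -0.12 (SE 0.09), -0.09 (SE 0.10) and 0.17 (SE 0.24). Of the Kcnj9 probe sets 2 were higher and 2 lower, from -0.29 to 0.17. A lower one, at 6.63 in wild type against 6.47 for the one used, differed by -0.20 (SE 0.16). That probe set passed the limit for well expressed, which the one used did not. Over the class of 14 the median difference was 0.02, with 8 higher, 6 lower and 7 below the median on all arrays.

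Voltage-gated alpha subunits were nearly level between the groups, with a median difference of 0.02 over 31 genes, 18 higher and 13 lower, and 0 at an unadjusted p under 0.05 (limma). Kcnv2 encodes a modifier subunit that joins the inner segment potassium channel of rods and cones, and its loss in humans causes cone dystrophy with supernormal rod response. Kcnv2 read 8.88, 8.32 and 8.87 in wild type and 8.55, 8.18 and 8.57 in mutant arrays. The groups overlapped, yet in each pair the mutant array was lower, by -0.33, -0.14 and -0.30. The difference was -0.26 (SE 0.19, interval -0.70 to 0.19; limma, adjusted p = 1.00, or 0.607 with the block). Of the 8 measured rod markers 7 lay lower and 1, Sag, higher, with a median difference of -0.21 and pair medians of -0.10, -0.03 and -0.42. The rod median was -0.13 without wild type replicate 3 and -0.09 without both replicate 3 arrays. Of the 7 measured cone markers 3 lay higher and 4 lower, with a median of -0.12 (-0.24 without wild type replicate 3). Without both replicate 3 arrays 4 lay higher and 3 lower, with a median of 0.01. Among the cone markers Gnb3, a subunit of cone transducin, differed by 0.99 (SE 0.21; limma, adjusted p = 0.920), and Pde6c, the cone phosphodiesterase, by 0.76 (SE 0.12; limma, adjusted p = 0.479). The part of either cell type in the Kcnv2 difference was not tested.

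Fast-activating channels that let neurons fire at high rates are built from Kcnc subunits. Kcnc1 read 7.30, 7.17 and 6.73 in wild type and 7.60, 7.31 and 6.94 in mutant arrays. The groups overlapped, while the mutant array was higher in each pair, by 0.30, 0.14 and 0.22 (mean 0.22, SE 0.21; limma, adjusted p = 1.00, or 0.643 with the block). Kcnc1 differed by 0.05 without wild type replicate 3 and by 0.06 without mutant replicate 1, and by up to 0.39 under the other settings. Leaving out a single array breaks its pair, and in both groups replicate 1 was highest and replicate 3 lowest. All 4 probe sets of Kcnc1 were higher in the mutant, by 0.13 to 0.22. Kcnc2, expressed in starburst amacrine cells, differed by -0.01 (SE 0.23) and Kcnc4 by 0.08 (SE 0.17).

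Among the Kcna genes, which encode delayed rectifiers and channels of axons, Kcna1 differed by -0.06 (SE 0.09), Kcna5 by 0.03 (SE 0.13) and Kcna6 by 0.09 (SE 0.10). Kcnh2, the channel known as HERG, differed by -0.06 (SE 0.15). The smallest p on the higher side of the class belonged to the electrically silent modifiers Kcng4 (0.23, SE 0.12) and Kcnf1 (0.16, SE 0.10), whose wild type levels were 5.47 and 4.45. On the lower side it belonged to Kcnv2 and to Kcns2 (-0.14, SE 0.10), another silent modifier.

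The A-type current, which inactivates within milliseconds and delays firing, flows through Kcnd subunits with KChIP proteins as partners. Kcnip1, a calcium-binding KChIP, was the 1 channel gene lower at an unadjusted p under 0.05. It read 6.82, 7.19 and 6.71 in wild type and 6.50, 6.59 and 6.65 in mutant arrays, so all mutant arrays were lower, although the third pair lay only 0.07 apart (-0.07). The difference was -0.33 (SE 0.14; limma, adjusted p = 1.00). Its other 3 probe sets differed by 0.02, -0.07 and 0.19, so the difference belongs to 1 probe set of 4. It was -0.19 without wild type replicate 2.

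Kcnip4, a further KChIP, is singled out here after its values were seen. At its brightest probe set Kcnip4 read 6.44, 6.54 and 5.80 in wild type and 5.90, 5.83 and 6.03 in mutant arrays, a difference of -0.34 (SE 0.20). Its 2 other probe sets differed by -0.29 and -0.54. In all 3 of them the mutant was lower in the first and second pair and higher in the third, where wild type replicate 3 was the lowest wild type array. Kcnip2 and Kcnip3 differed by 0.045 (SE 0.30) and 0.07 (SE 0.14).

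Kcnd2, a pore subunit of the same channels, read 5.78, 5.58 and 4.93 in wild type and 5.24, 5.34 and 4.86 in mutant arrays. It differed by -0.29 (SE 0.24) with pair differences of -0.55, -0.24 and -0.08. A dimmer Kcnd2 probe set differed by -0.57 (SE 0.12) without overlap, at 4.09, 4.26 and 3.90 against 3.48, 3.42 and 3.64 (limma, adjusted p = 0.943). Its levels lie below the overall median of 4.76, and the other 2 Kcnd2 probe sets differed by -0.03 and -0.05. Kcnd3 differed by -0.07 (SE 0.11) and Kcnd1 by 0.22 (SE 0.16). Ganglion cell markers lay lower in all 7 measured genes, with a median difference of -0.36. Without wild type replicate 3 the median was -0.57, and without both replicate 3 arrays it was -0.42, with 6 lower each time. Mean levels of the ganglion cell markers were 7.17 to 7.40 in wild type and 6.72 to 7.02 in mutant arrays, while 8 amacrine cell markers had a median of -0.01. Their part in the values of Kcnip1, Kcnip4 and Kcnd2 was not tested.

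Of the other auxiliary subunits, Kcne2 differed alike in the 3 pairs. It encodes a small membrane protein that alters the gating of several voltage-gated channels. It read 8.04, 8.30 and 7.68 in wild type and 7.62, 7.89 and 7.38 in mutant arrays. The groups overlapped because replicate 3 was low in both, but the mutant array was lower in every pair, by -0.42, -0.41 and -0.30. The difference was -0.38 (SE 0.19; limma, adjusted p = 1.00, or 0.433 with the block). Kcne4 differed by 0.15 (SE 0.09) without overlap and Kcne1l by 0.15 (SE 0.15). The beta subunits Kcnab1, Kcnab2 and Kcnab3 differed by 0.06, -0.07 and -0.03 at their brightest probe sets.

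**Figure D4:**
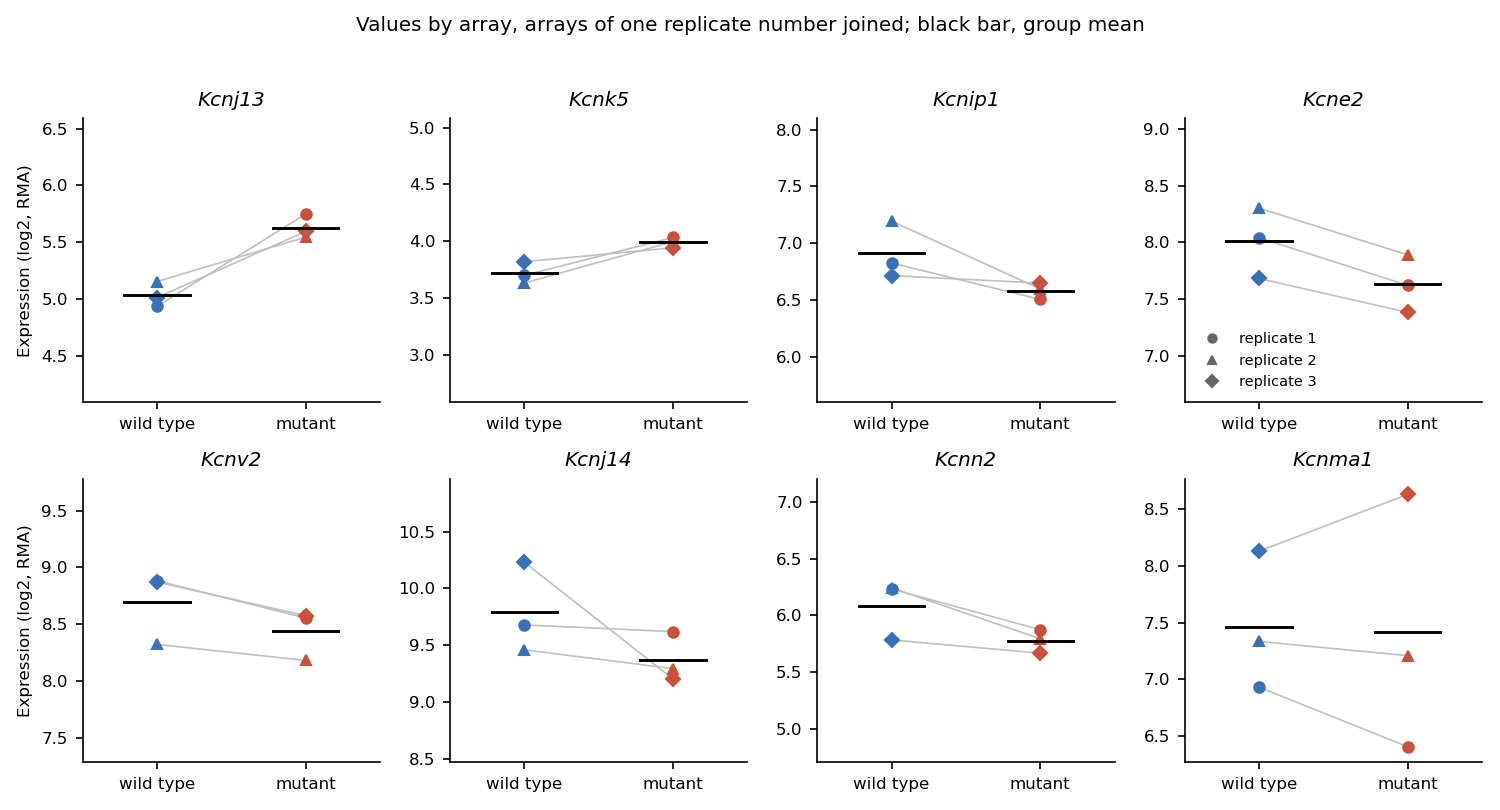
Log2 expression of 8 channel genes on each array, in panels of equal height in log2 units, with symbols for the replicate number, grey lines joining same-numbered arrays and black bars at the group means. Kcnj13 and Kcnk5 do not overlap and are higher in the mutant, and Kcnip1 does not overlap and is lower. Kcnip1, Kcne2, Kcnv2, Kcnj14 and Kcnn2 are lower within every pair, and Kcnma1 follows the replicate number in both groups.

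Among the calcium-activated channels Kcnma1 encodes the pore of the BK channel, which shapes the responses of bipolar and amacrine cells. Its brightest probe set read 6.93, 7.33 and 8.13 in wild type and 6.41, 7.21 and 8.63 in mutant arrays. In both groups replicate 1 was lowest and replicate 3 highest. The group difference was -0.05 (SE 0.56, or 0.19 with the block). Its interval in the fit on group alone, -1.38 to 1.28, was the widest of all channel genes. Over the alternative settings the Kcnma1 difference ran from -0.66 to 0.45. These settings include fits without a single array, which break a pair. Controls for beta-actin were likewise low on replicate 1 (8.70 and 8.15) and high on replicate 3 (10.50 and 10.55), and what the numbers share was not tested.

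A dimmer Kcnma1 probe set gave another picture. It read 5.30, 5.29 and 5.15 in wild type and 5.72, 5.53 and 5.93 in mutant arrays, without overlap, and differed by 0.48 (SE 0.12; limma, adjusted p = 1.00). The other 3 differed by -0.26 (SE 0.45), 0.53 (SE 0.64) and 0.06 (SE 0.11). The probe sets therefore gave no common direction for Kcnma1.

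Kcnn2, a small-conductance channel that follows action potentials with a slow hyperpolarization, read 6.23, 6.24 and 5.78 in wild type and 5.87, 5.79 and 5.67 in mutant arrays. It was lower in each pair, by -0.36, -0.45 and -0.12, with a difference of -0.31 (SE 0.15; limma, adjusted p = 1.00, or 0.598 with the block). The BK beta subunit Kcnmb4 differed by 0.20 (SE 0.21). The sodium-activated channel gene Kcnt2 (-0.16, SE 0.09) and Kcnu1, a channel of sperm (0.18, SE 0.10), did not overlap but lay near background at 2.38 and 3.07 in wild type. Over the 11 genes 3 were higher and 8 lower, at a median of -0.03.

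K2P channels carry the background leak of potassium at rest, and 10 of 12 were higher in the mutant at a median of only 0.06. Of all genes 58.4% lay higher, and 6 of the 12 lay below the array median on all arrays. Kcnk3, Kcnk5, Kcnk10 and Kcnk13, counted among the higher, also had lower probe sets. Kcnk5, an acid-sensitive member, read 3.70, 3.63 and 3.82 in wild type and 4.03, 4.00 and 3.94 in mutant arrays, with every mutant array higher. It differed by 0.27 (SE 0.09; limma, adjusted p = 1.00), but its other probe set differed by -0.06 (SE 0.12), and both lay below the median. The 2 probe sets are almost equally bright, and the other is the brighter with some arrays left out: the difference is then -0.15 without wild type replicate 3, and -0.08 and -0.11 when the mutant arrays numbered 1 and 2 are dropped in turn. Kcnk2, a channel opened by membrane stretch, differed by 0.14 (SE 0.08) and its relative Kcnk10 by 0.17 (SE 0.11), at wild type levels of 4.11 and 4.04. The other Kcnk10 probe set, at 4.05 in wild type, differed by -0.14 (SE 0.085) without overlap, so the 2 went opposite ways. Kcnk1, the only well expressed member, differed by 0.12 (SE 0.21), and Kcnk7 and Kcnk12 by -0.20 (SE 0.15) and -0.09 (SE 0.10). By their promoter windows Kcnk5, Kcnk16 and Kcnma1 start on chromosome 14, as Cdhr1 does. Kcnk16 differed by 0.05 (SE 0.08), and whether alleles near Cdhr1 differ between the mice was not tested.

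The measured HCN genes were level between the groups. Hcn3 read 6.93 to 7.04 in wild type and 6.97 to 7.05 in mutant arrays, a difference of 0.03 (SE 0.08) with an interval of -0.17 to 0.23. Hcn2 differed by 0.12 (SE 0.13) at a wild type level of 5.06.

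Where a gene had several probe sets, these often differed. Of 46 such genes, 21 had all differences of 1 sign, and in 4 (Kcnma1, Kcnab2, Kcnd2 and Kcnip1) the differences spanned 0.5 or more. The second probe sets of Kcnab1, Kcnab2 and Kcnip3 were lowest in mutant replicate 1. For Kcnab2 this probe set read 7.25 to 8.36 in wild type and 6.38, 6.88 and 8.16 in mutant arrays, with pair differences of -1.62, -0.37 and -0.20. The brightest Kcnab2 probe set read 8.79, 8.68 and 8.52 and 8.86, 8.71 and 8.22 in the same arrays. The corresponding first-pair differences were -1.01 for Kcnab1 and -1.05 for Kcnip3, against 0.07 and -0.04 at their brightest probe sets.

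**Figure D5:**
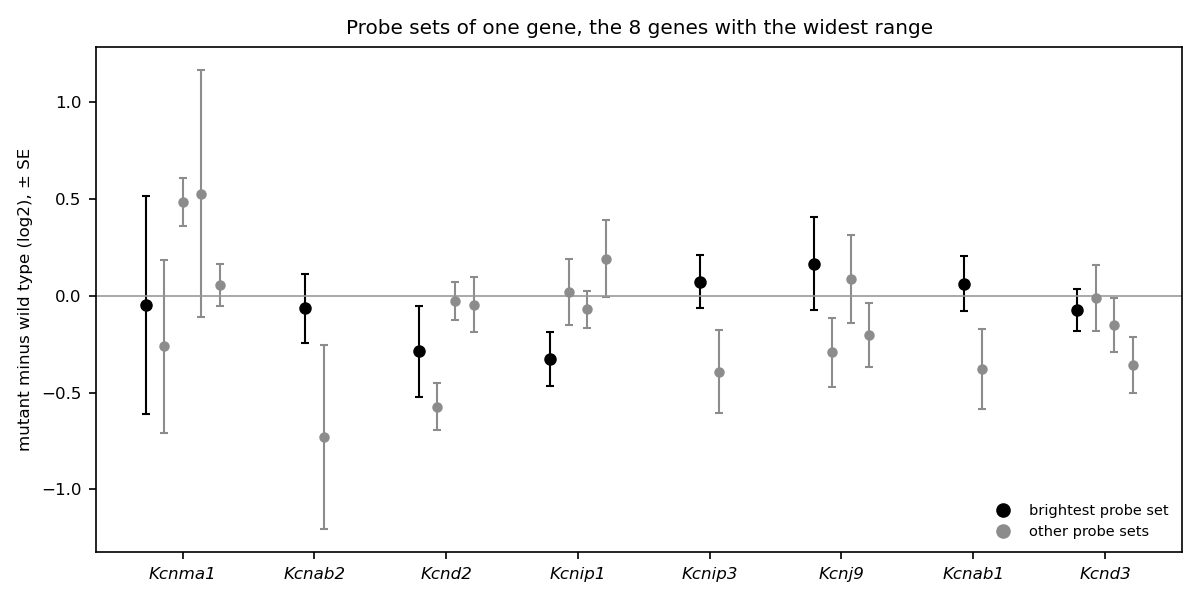
Difference between prCAD mutant and wild type retina (log2, vertical axis) with its SE for every probe set of the 8 genes whose probe sets spanned the widest range. Black is the brightest probe set of the gene and grey the others; those of Kcnma1 run from -0.26 to 0.53 and those of Kcnab2 from -0.73 to -0.07.

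Proteins that work with these channels were measured on the same arrays. Of 20 listed channel partners 19 were measured, 7 higher and 12 lower, with a median difference of -0.02 and 0 past the adjusted threshold (limma). At an unadjusted p under 0.05 there was 1 of 19, beside 1.09% of all genes on the lower side: Lrrc26, a BK gamma subunit, which was lower by -0.23 (SE 0.10) near background at 3.86 and 3.63. Dpp6 and Dpp10, partners of Kcnd channels, differed by -0.02 (SE 0.13) and -0.24 (SE 0.11). Pex5l, a partner of HCN channels, differed by -0.06 (SE 0.16).

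The sodium-potassium pump maintains the potassium gradient that these channels use. Of 8 measured pump genes 2 were higher and 6 lower, at a median of -0.04, and 0 passed after adjustment (limma); 1 was higher and 1 lower at an unadjusted p under 0.05, beside 2.33% and 1.09% of all genes. The beta subunits Atp1b1 and Atp1b2 differed by -0.04 (SE 0.10) and 0.07 (SE 0.12). Of the FXYD proteins that regulate the pump, Fxyd1 was 0.45 higher (SE 0.15; limma, adjusted p = 1.00) and Fxyd7 differed by -0.40 (SE 0.11; limma, adjusted p = 1.00), both without overlap between the groups.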

How the data were processed

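The deposited values are log2 expression values that the authors made with RMA (version not stated), according to the submitters' processing notes. RMA corrects background, quantile normalizes and combines each probe set's probes, and so takes out array-wide shifts in signal. From 45101 probe sets 64 manufacturer controls were left out. Gene symbols are those of the platform annotation (34945 probe sets with 1 symbol, 932 with several, 9160 without a name here). The test was limma 3.58.1 (lmFit and eBayes, R 4.3.3) on group alone over all 45037 probe sets, with Benjamini-Hochberg adjustment at 0.05. It was tried on simulated data whose arrays varied independently, which leaves the shared deviations of same-numbered arrays uncovered. SEs are of the fit on group alone unless the block is named.

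Deviations of same-numbered arrays correlated at 0.477, 0.469 and 0.563 across probe sets, all over 0.1, so the numbers were taken as pairs. That pairing is read from the data; no label explains the numbers.

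The members, classes, marker lists and tests were chosen with earlier results of these data known. Named are the preset channels, the 2 genes per class and direction with the smallest p, those without overlap and a difference of 0.5 or more, and partner or pump genes at an unadjusted p under 0.05. Other names were picked after their values were seen. Alternatives were the block, a filter on dim probe sets, array weights, repeated quantile normalization or median centring, a trended robust eBayes, other ways to represent a gene, other limits for well expressed, and leaving out arrays. Marker lists without replicate 3 arrays were added after seeing the data. Promoter sequences are from RefSeq on GRCm38.p6. Figures were drawn with matplotlib 3.10.9.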

Additional observations from a re-analysis of the deposited data

How the results depend on the processing

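In none of the settings run did a channel gene or probe set pass the adjusted threshold (limma), including the replicate block and the fits without single arrays or without both replicate 3 arrays. Counts at an unadjusted p under 0.05, 1 lower and 2 higher by the test on group alone, moved more. The pairs with the replicate block gave 5 lower and 4 higher (2.57% and 4.88% of all genes), and array weights 5 and 5 (3.31% and 5.61%). Lower genes numbered 0 with dim probe sets left out, which kept 49 of the 82 genes, with centring on array medians, with a trended robust fit and with probe sets averaged per gene, where 0.951% to 1.53% of all genes were lower, and 5 without both replicate 3 arrays (2.26%). Higher genes numbered 1 with dim probe sets left out or with probe sets averaged per gene (2.26% and 2.47% of all genes). Leaving out 1 array gave 0 to 6 lower, where 0.665% to 1.55% of all genes were lower; the 6 came without wild type replicate 3 (1.48%). It gave 1 to 3 higher, where 1.64% to 3.69% of all genes were; the 3 came without mutant replicate 3 (3.69%). The median difference stayed between -0.02 and 0.05. Of 82 genes 23 counted as well expressed, 6 at the 90th percentile, 48 at the median and 11 with probe sets averaged per gene. For the 31 named channel genes 430 of 452 values kept their direction, and the other 22 never passed. Probe sets near background limit the differences of genes such as Kcnk5, Kcnt2 and Kcnu1, and 3 arrays a group limit all of them.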
